A study of Mus musculus with 18 samples.

Results

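Small nucleolar RNAs (snoRNAs) were followed on 18 whole-transcript arrays of mouse small intestine and liver, through the probe sets whose only gene symbol in the platform annotation starts with Snora or Snord and a digit. A probe set is a group of array probes summarised as 1 value for a transcript. Of 41345 probe sets on the array, 75 carried such a symbol, and the 69 that exceeded the median of the array on 4 or more of the 18 arrays are described here. They stand for 68 genes, because Snora33 has 2 probe sets. By their symbols 26 are H/ACA and 43 are C/D snoRNAs. They were chosen by their measured level over all 18 arrays, so their high level is a description. The rule did not read the donor groups, but Snora2b met it only through OMT arrays, and the snoRNAs were picked with earlier results of these data known. The other 6 snoRNA probe sets fell below that limit, and 43 further probe sets that name a snoRNA together with another gene were not used.

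The mice were C57BL\6 germ-free recipients aged 5 to 6 weeks at transfer, and each received the gut microbiota of either old or young donors. OMT recipients had donors of about 24 months, and YMT recipients had young donors whose age the labels give as 4 weeks in one place and as 5 to 6 weeks in another. All recipients were then kept for 8 weeks, and their age at sampling is given as 12 or as 13 weeks. Each tissue had 5 OMT and 4 YMT arrays, 1 array per biological replicate; how many donors or cages stand behind them is not given in the sources used here, so p-values measure the spread between these animals. All values are log2 levels, on which a difference of 1 is a doubling, and OMT was compared with YMT within each tissue by limma over 15513 probe sets with 1 symbol that met the same level limit; p-values were adjusted by Benjamini-Hochberg over all of them, and an adjusted p under 0.05 counts as passing. The labelled tissues matched their markers, since the mean level of 6 hepatocyte genes was 12.5 to 12.6 on liver arrays and 6.39 to 6.80 on intestinal arrays, and that of 6 enterocyte genes was 5.37 to 5.91 on liver arrays and 11.3 to 12.5 on intestinal arrays. Not every listed gene parted the tissues. Apoa1, on the hepatocyte list, was at 11.9 in OMT and 11.8 in YMT intestine, and at 11.5 and 11.6 in liver. Because tissue pieces were measured, fewer cells of a type and less RNA per cell cannot be told apart.

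SnoRNAs are short nuclear RNAs that guide the chemical modification of ribosomal and spliceosomal RNA. C/D snoRNAs pair with their target and direct ribose methylation by fibrillarin, in a particle with Nop56, Nop58 and Snu13. H/ACA snoRNAs direct the conversion of uridine to pseudouridine by dyskerin (Dkc1), in a particle with Gar1, Nhp2 and Nop10, and a few snoRNAs, Snora73a, Snora73b, Snord118, Snord13 and Snord22 among them, act in or are linked to the processing of ribosomal RNA. Most mammalian snoRNAs are cut out of the introns of other genes, called host genes, many of which code for ribosomal proteins or are long noncoding RNAs of the Snhg family. In RefSeq's gene annotation 66 of the 69 members lie within another gene and 3 (Snord13, Snord89 and Snord118) do not. The 66 fall into 53 host genes, of which 39 are protein-coding, 14 are long noncoding RNAs and 16 code for ribosomal proteins.

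Many host genes start transcription inside a run of pyrimidines, the terminal oligopyrimidine start that ties translation to growth signals. RefSeq promoters (GRCm38.p6) were available for 42 of the 53 host genes, with 46 promoters in all. A run of at least 8 C or T letters, read on the gene's own strand within 20 bases of the start, was present in 12 of these 46 promoters (26.1%), against 5404 of 32851 promoters of all genes (16.4%). Below are the 150 bases around the start of 3 host genes, with the longest such run in capitals. Rpsa holds Snora62 and codes for a small-subunit ribosomal protein. Kansl2 holds Snora2b and Snora34 and codes for a chromatin protein. The third, 2410006H16Rik, is a noncoding host of Snord49a, Snord49b and Snord65, none of which passed the test in either tissue.
Rpsa, chr9:120127666-120127815, plus strand: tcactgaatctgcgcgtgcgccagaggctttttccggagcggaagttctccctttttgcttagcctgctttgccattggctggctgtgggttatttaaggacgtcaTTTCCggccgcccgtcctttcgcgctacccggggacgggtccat
Kansl2, chr15:98534220-98534369, minus strand: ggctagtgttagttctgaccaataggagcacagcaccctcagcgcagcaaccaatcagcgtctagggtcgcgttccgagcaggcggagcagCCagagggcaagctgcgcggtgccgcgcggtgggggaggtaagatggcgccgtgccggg
2410006H16Rik, chr11:62602777-62602926, plus strand: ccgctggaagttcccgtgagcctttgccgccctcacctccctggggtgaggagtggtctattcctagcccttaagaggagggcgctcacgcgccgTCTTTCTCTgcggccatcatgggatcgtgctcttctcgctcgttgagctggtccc
Within 20 bases of the start the longest run was 9 letters in 2410006H16Rik, 5 in Rpsa and 2 in Kansl2. Of the 3 only the noncoding host thus passed the limit of 8. Longer runs farther from the start, as in Rpsa, were not counted. A run is a description of these letters and says nothing of whether a factor acts there.

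The members were bright RNAs on these arrays. Their median level was 7.52 in intestine, against 5.90 for all tested probe sets, and 7.09 in liver, against 5.60; within each array the median member ranked at the 82.3rd to 94.3rd percentile in intestine and at the 86.7th to 93.3rd in liver. In intestine the highest were a probe set of Snora33 (12.19 ± 0.35 in OMT and 11.74 ± 0.20 in YMT, SD, n = 5 and n = 4 here and below), Snord82 (11.27 ± 0.36 in OMT and 10.85 ± 0.24 in YMT), Snord49b (11.25 ± 0.43 in OMT and 10.65 ± 0.20 in YMT), Snord73b (11.00 ± 0.50 in OMT and 10.53 ± 0.26 in YMT) and Snord47 (10.93 ± 0.46 in OMT and 10.44 ± 0.29 in YMT). In liver the highest were Snord13 (11.26 ± 0.12 in OMT and 11.06 ± 0.21 in YMT), the same probe set of Snora33 (11.00 ± 0.36 in OMT and 10.60 ± 0.36 in YMT), Snord104 (10.82 ± 0.25 in OMT and 10.60 ± 0.15 in YMT), Snord73b (10.67 ± 0.24 in OMT and 10.36 ± 0.12 in YMT) and Snord99 (10.60 ± 0.31 in OMT and 10.29 ± 0.35 in YMT). Probe sets differ in how well they bind, so the order of different snoRNAs on this scale is a description of brightness. Snord13 guides an acetylation of small-subunit ribosomal RNA, and Snora33 and Snord73b lie in ribosomal protein genes, Rps12 and Rps3a1. Of the 69 members 57 were above the median on all 18 arrays. Near the limit stood Snora2b, above it on 4 arrays with levels of 3.11 to 4.60, and Snord91a, above it on 6 arrays with levels of 3.38 to 4.84. Just outside were Snord85 (3.51 to 4.63) and Snord92 (2.56 to 5.77), each above the median on 3 arrays.

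In intestine 1 member, Snora62, passed the test and was higher in OMT, and none was lower. Over all tested probe sets 0.909% were called higher and 2.41% lower. The point estimates of most members nevertheless lay above 0. The estimate was positive for 63 of the 69 members and negative for 6, against 48% and 52% of all tested probe sets, and at an unadjusted p under 0.05 the counts were 18 higher members (background 7.49%) and 0 lower ones (background 13.4%). The median difference was 0.41 over the members and -0.01 over all tested probe sets, and the members ranged from -0.14 for Snord52 to 1.92 for Snora62. Members do not vary independently between arrays, as described below, and they were chosen with the group's direction known, so these counts describe the arrays and are no test of the group.

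Snora62 guides pseudouridylation of ribosomal RNA and lies in an intron of Rpsa. Its level in OMT intestines was 11.28, 11.42, 10.97, 10.31 and 10.78, against 9.28, 8.84, 8.97 and 9.03 in YMT intestines. Every OMT intestine was above every YMT intestine. The difference was 1.92 ± 0.20 (SE, limma, adjusted p = 0.00341), a 3.79-fold higher level, and with any 1 array left out the adjusted p was 0.00137 to 0.0223. The difference was not shared by all members: relative to the mean of the other 68 members on the same array, Snora62 stood 2.75 to 3.35 higher in OMT and 1.34 to 1.89 higher in YMT, and these ranges did not overlap. In liver the same RNA was at 10.07, 8.79, 6.95, 8.30 and 8.66 in OMT and at 8.63, 7.28, 8.73 and 9.92 in YMT. There the groups overlapped over most of their range, and the difference was -0.09 ± 0.60 (limma, adjusted p = 0.944).

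Snora74a, an H/ACA snoRNA held by the noncoding gene Snhg4, was the other member whose intestinal groups did not overlap (2 members higher without overlap and 0 lower, against 2.63% and 5.93% of all tested probe sets). Its level was 9.08, 8.11, 7.97, 6.67 and 7.57 in OMT and 6.38, 6.40, 6.44 and 5.37 in YMT. The lowest OMT array thus lay just above the highest YMT array. The difference of 1.73 ± 0.42 did not pass the test (limma, adjusted p = 0.0529); without OMT replicate 4, the lowest of the OMT arrays, it passed (adjusted p = 0.0205). With any 1 array left out the adjusted p was 0.0205 to 0.137, and the threshold was also met under the stricter filter, the filter within the tissue, array weights and median centring (limma, adjusted p = 0.0385, 0.0481, 0.0259 and 0.0480), with all 18 arrays in 1 fit (0.00335) and, only just, with the filter on the mean. The threshold was met as well with the replicate number as a block (limma, adjusted p = 0.0226). It was not met without a level filter, with 1 probe set per gene, or with trend and robust eBayes. Nor was it met with quantile normalization within the tissue or without OMT replicates 1 and 2. It was missed in 8 of the 9 fits that left out 1 array. On the scale relative to the other members Snora74a was at -0.60 to 0.52 in OMT and at -1.82 to -1.04 in YMT. In liver the levels were 5.40 to 6.38 in OMT and 5.65 to 6.12 in YMT, with a difference of 0.07 ± 0.18 (limma, adjusted p = 0.820).

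**Figure D1:**
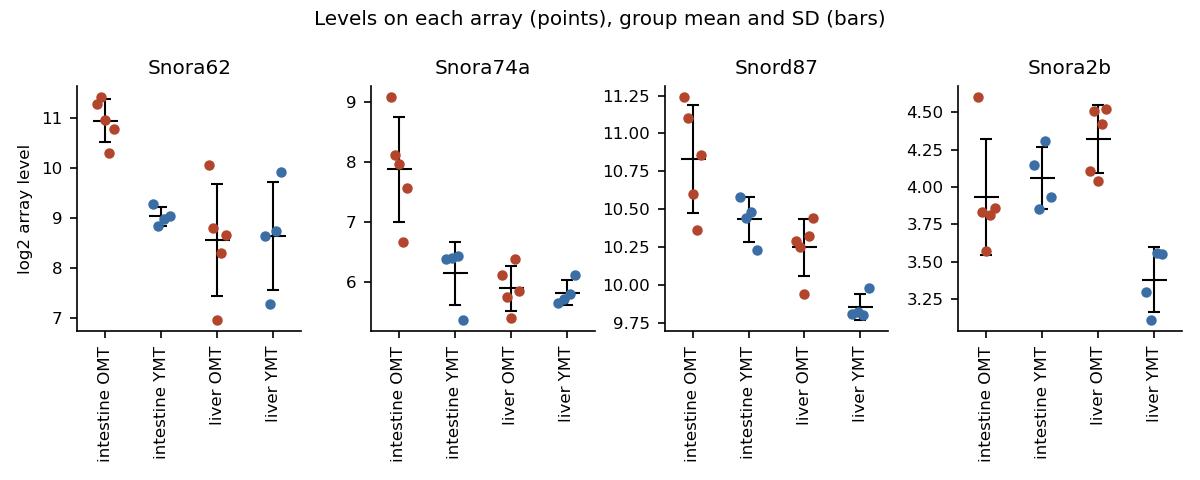
The log2 level of Snora62, Snora74a, Snord87 and Snora2b is plotted for each array (points, OMT in red and YMT in blue), with the group mean and SD (black bars), in intestine and liver; each panel has its own vertical axis, which does not start at 0. The OMT and YMT points of Snora62 and Snora74a are apart in intestine and mixed in liver, while those of Snora2b are mixed in intestine and apart in liver.

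The other members that stood out in intestine did so by spread between animals. The largest within-group SDs belonged to Snora75, Snora73b, Snora34, Snord66 and a second, dimmer probe set of Snora33. Snora75, which lies in the nucleolin gene Ncl, was at 8.71, 7.36, 6.44, 4.69 and 6.07 in OMT and at 5.98, 5.38, 6.39 and 5.00 in YMT. OMT replicate 1 was far above and OMT replicate 4 below all YMT arrays. Its difference of 0.97 ± 0.67 did not pass the test (limma, adjusted p = 0.435), nor did that of Snora73b (0.82 ± 0.49, adjusted p = 0.361), Snora34 (0.64 ± 0.47, adjusted p = 0.459) or Snord66 (0.83 ± 0.46, adjusted p = 0.325). The dimmer probe set of Snora33 was at 7.03 ± 1.31 in OMT and 6.19 ± 0.17 in YMT, a difference of 0.84 ± 0.55, and the brighter differed by 0.44 ± 0.17 (limma, adjusted p = 0.411 and 0.178), so the probe sets of this gene gave the same sign and unequal sizes.

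SnoRNAs that do not lie in a host gene are known to be transcribed from promoters of their own in the case of Snord118 (U8, needed to mature the large-subunit RNAs) and Snord13 (U13). In intestine Snord118 was at 7.64, 6.93, 6.74, 5.85 and 6.12 in OMT and at 6.13, 6.17, 6.19 and 5.69 in YMT, a difference of 0.61 ± 0.31 (limma, adjusted p = 0.294). Snord13 was at 11.68, 10.71, 10.63, 9.18 and 10.25 in OMT and at 10.30, 10.28, 10.76 and 10.12 in YMT, a difference of 0.12 ± 0.40 (limma, adjusted p = 0.881). Both followed the order of the other members on the OMT arrays, with replicate 1 highest and replicate 4 lowest. In liver the differences were -0.41 ± 0.25 for Snord118 and 0.20 ± 0.11 for Snord13 (limma, adjusted p = 0.306 and 0.248).

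The classes had similar intestinal medians. H/ACA members had a median difference of 0.44 and C/D members one of 0.40. The estimate was above 0 for 24 of 26 H/ACA and 39 of 43 C/D members, and at an unadjusted p under 0.05 the counts were 4 and 14 higher members (background 7.49%). The gap between the class medians was 0.05, and it was 0.00 to 0.12 with 1 array left out. H/ACA RNAs were the longer ones, with a median of 118.5 nucleotides against 68 for C/D. Across the 69 members the difference had a Spearman correlation of 0.23 with length and 0.42 with mean level in intestine, and of -0.26 and 0.07 in liver; members share arrays and probes of 1 design, so these are given without a test. The labels name a column kit that retains long RNA and recovers RNAs as short as these poorly, and a probe set reads the same letters in a free snoRNA and in an unspliced host transcript. The part of either in the values was not tested.

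**Figure D2:**
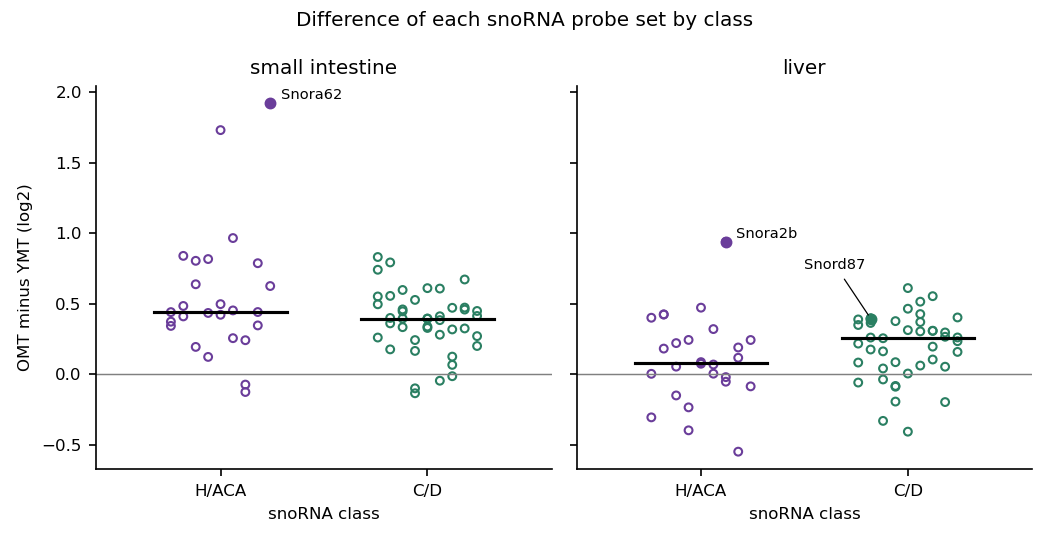
Each point is the difference OMT minus YMT (log2, vertical axis) of 1 snoRNA probe set, by class (horizontal axis) and tissue (panels); filled points passed the test, and the bar is the class median. In intestine the medians are 0.44 for H/ACA and 0.40 for C/D with Snora62 at the top, and in liver they are 0.08 and 0.26.

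The members moved together from animal to animal. In intestine OMT replicate 1 had the highest level of its group for 58 of 69 members and OMT replicate 4 the lowest for 57; among YMT arrays replicate 3 was highest for 44 and replicate 4 lowest for 49. The mean over the members was 8.57, 8.12, 7.68, 7.26 and 7.74 on the OMT arrays and 7.49, 7.42, 7.65 and 7.17 on the YMT arrays. The median difference of 0.41 depended on single arrays. It was 0.23 without OMT replicate 1, 0.55 without OMT replicate 4 and 0.10 without OMT replicates 1 and 2, the arrays with the highest means. The number of members called higher was 6 without OMT replicate 4, 2 without YMT replicate 3 and 1 without any 1 of the other arrays. How many of all tested probe sets were called in these fits was not counted. Whether these changes are particular to the members is therefore not known.

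**Figure D3:**
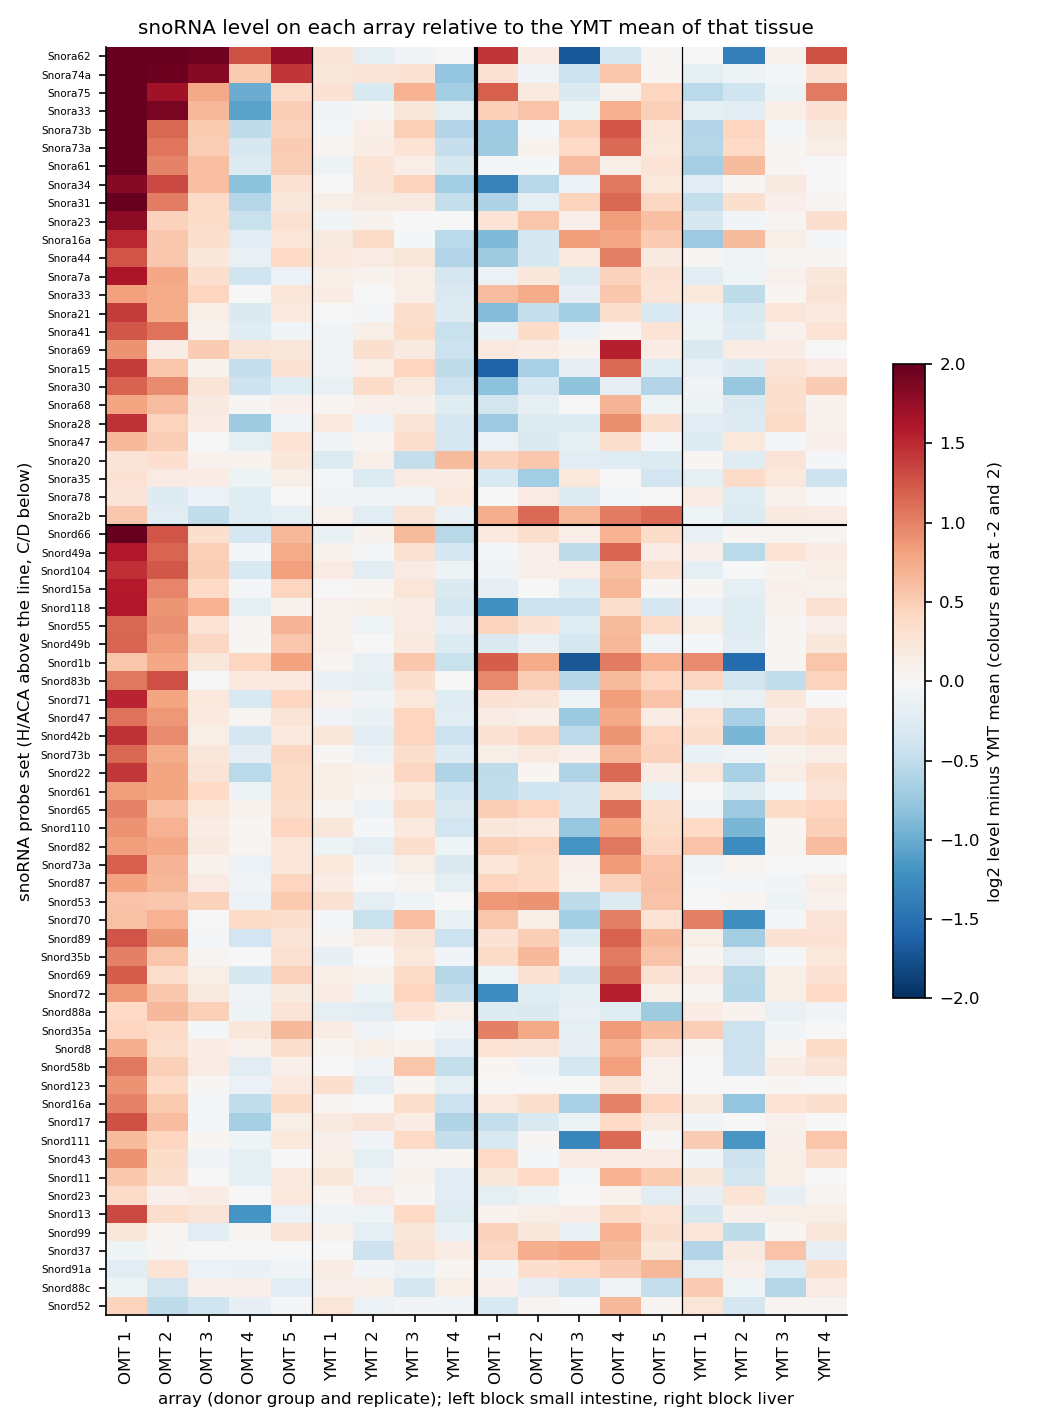
The log2 level of each snoRNA probe set (rows, H/ACA above the line and C/D below) is shown on each array (columns, intestine left and liver right, OMT before YMT) relative to the mean of the YMT arrays of that tissue, red for higher and blue for lower. Whole columns share a colour: OMT replicate 1 in intestine is red for most rows, while OMT replicate 4 is pale or blue, and in liver OMT replicate 4 is red for most rows.

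The spread itself was unequal between the groups. In intestine the median SD over the members was 0.46 in OMT and 0.26 in YMT, and for all tested probe sets it was 0.16 in OMT and 0.13 in YMT. The OMT SD was the larger for 59 of 69 members, and for 9395 of the 15513 tested probe sets. Members vary together between arrays, so such a count is not one of independent observations. H/ACA members had median SDs of 0.69 in OMT and 0.30 in YMT, and C/D members 0.42 in OMT and 0.24 in YMT. After subtracting each group's mean, the mean pairwise correlation over the 9 intestinal arrays was 0.64 among the members, 0.66 among 16 probe sets of other small noncoding RNAs, 0.30 among 40 host genes, 0.06 among 146 microRNA genes and 0.01 among all tested probe sets. In liver the median SD over the members was 0.40 in OMT and 0.26 in YMT, with the OMT SD larger for 51 of 69, and the mean pairwise correlation was 0.39 among the members, 0.39 among the other small RNAs and 0.03 among host genes. The set of other small RNAs itself holds a snoRNA under another symbol, as described below.

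The other small noncoding RNAs, which include small Cajal body RNAs (guides of spliceosomal RNA modification), Rpph1 (the RNA of ribonuclease P) and Rny1 and Rny3 (Y RNAs), followed the snoRNAs over the arrays. This set was made by symbol and is not apart from the snoRNAs. It holds Rnu3a (U3), itself a C/D snoRNA, and small Cajal body RNAs are C/D or H/ACA RNAs too. Their mean was 8.09 to 9.12 on OMT and 8.08 to 8.47 on YMT intestinal arrays, highest on OMT replicate 1 as for the members. None of the 16 passed the test in either tissue. Over all tested probe sets 0.909% were called higher and 2.41% lower in intestine, and 8.85% and 7.56% in liver. The median difference of the 16 was 0.24 in intestine and -0.10 in liver. Scarna17, with 2 probe sets, differed by 0.80 ± 0.26 and 0.70 ± 0.22 in intestine (limma, adjusted p = 0.115 and 0.105), and Rnu3a, the U3 snoRNA of ribosomal RNA processing, by 1.42 ± 0.50 (limma, adjusted p = 0.142). MicroRNA genes varied less between arrays, with means of 5.38 to 5.58 on OMT and 5.29 to 5.43 on YMT intestinal arrays. Their mean was nevertheless also highest on OMT replicate 1 and lowest on OMT replicate 4 among the OMT intestines. Their median difference in intestine was 0.12, against -0.01 for all tested probe sets. They were dimmer than the members. The mean levels of markers of other cell types overlapped between the donor groups in intestine, but their estimates were not all near 0. Median differences were -0.48 (range -1.10 to -0.42) for 4 genes of dividing cells and -0.50 (range -0.61 to -0.27) for 4 lymphocyte and plasma cell genes. That of 4 smooth muscle genes was 0.115 (range 0.03 to 0.18). The mean of 4 genes of dividing cells was 6.66 to 7.39 on OMT and 7.22 to 7.98 on YMT arrays, with 1 of 4 (Ccnb2) lower in OMT, and that of 4 lymphocyte and plasma cell genes was 7.0 to 7.87 on OMT and 7.55 to 8.29 on YMT arrays, with none called; their part in the snoRNA levels was not tested.

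**Figure D4:**
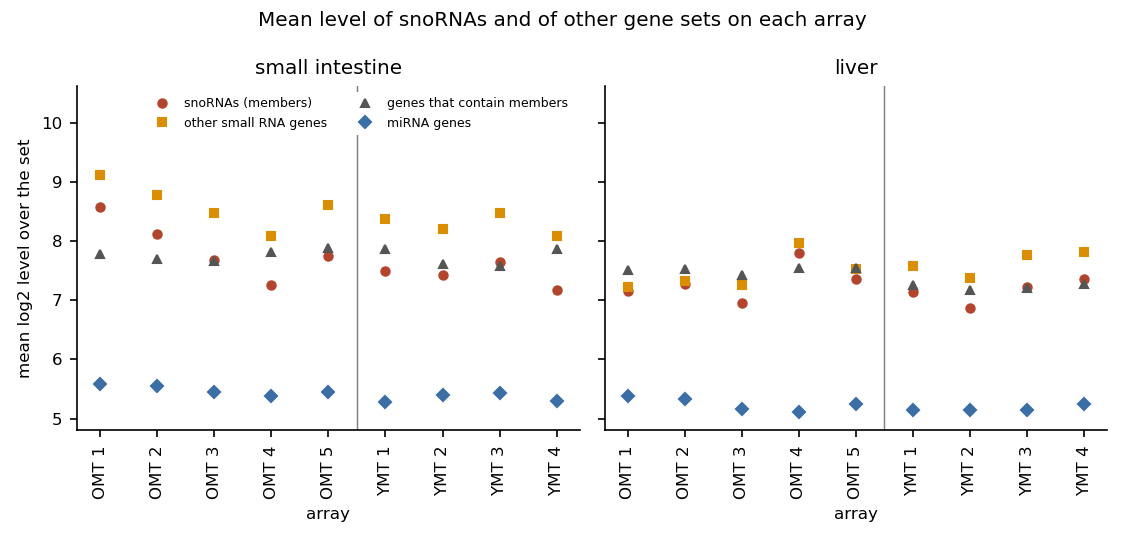
The mean log2 level over the snoRNA members (circles), other small RNA genes (squares), genes that contain members (triangles) and microRNA genes (diamonds) is plotted for each array (horizontal axis, OMT left of YMT), for intestine and liver; the vertical axis does not start at 0. In intestine the circles and squares run in parallel, with the snoRNAs at 8.57 on OMT replicate 1 and at 7.26 on OMT replicate 4, while the microRNA genes stay between 5.29 and 5.58.

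In liver 2 members, Snora2b and Snord87, passed the test and were higher in OMT, and none was lower. Over all tested probe sets 8.85% were called higher and 7.56% lower. The estimate was above 0 for 53 of 69 members and below 0 for 16 (47.9% and 52.1% of all tested probe sets), and at an unadjusted p under 0.05 the counts were 13 higher members (background 15.9%) and 2 lower ones (background 14.1%), which are shares near or under the background. The median difference was 0.19 over the members and -0.01 over all tested probe sets, within a range from -0.55 for Snora30 to 0.94 for Snora2b.

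Snora2b, an H/ACA snoRNA in the gene Kansl2, was dim. In liver it was at 4.11, 4.51, 4.04, 4.42 and 4.52 in OMT and at 3.30, 3.11, 3.56 and 3.55 in YMT. The groups did not overlap; 3 members were higher without overlap and 0 lower, against 8.61% and 7.7% of all tested probe sets. The difference was 0.94 ± 0.13 (limma, adjusted p = 0.000962), or 1.92-fold. The liver arrays' own medians were 4.12 to 4.22, and all 4 arrays on which Snora2b exceeded the median were OMT arrays, 3 of liver and 1 of intestine. It entered the description only through OMT arrays, so the rule favoured a higher level in OMT. Its call is no support for the members as a whole. It lies beside Snora34 in the same host, and Snora34 was not higher in liver (-0.15 ± 0.37, limma, adjusted p = 0.827).

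Snord87 guides ribose methylation and lies in the noncoding gene Snhg6. In liver it was at 10.29, 10.25, 9.94, 10.32 and 10.44 in OMT and at 9.81, 9.82, 9.80 and 9.98 in YMT. Only the lowest OMT array, replicate 3, lay within the YMT range. The difference was 0.40 ± 0.10 (limma, adjusted p = 0.0203), a 1.32-fold higher level, and it missed the threshold without YMT replicate 1, 2 or 3 (adjusted p = 0.0516, 0.0581 and 0.0559), without OMT replicates 1 and 2 (0.0766) and with all 18 arrays in 1 fit (0.0673). In intestine the estimate was of the same size, 0.40 ± 0.17, with a larger error (limma, adjusted p = 0.212). Snord66, in Eif4g1, and Snord73a, in Rps3a1, were the other members with liver groups that did not overlap. Snord66 was at 7.76 to 8.31 in OMT and at 7.48 to 7.68 in YMT, a difference of 0.35 ± 0.11, and Snord73a at 6.95 to 7.70 in OMT and at 6.79 to 6.91 in YMT, a difference of 0.43 ± 0.13 (limma, adjusted p = 0.0513 and 0.0515). Both missed the threshold narrowly.

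The liver counts rested on single arrays. The members called higher numbered 10 without OMT replicate 3, which had the lowest level of its group for 39 of 69 members, and 1 without YMT replicate 1 or YMT replicate 2. A single member was called lower without OMT replicate 4 or YMT replicate 2. The share of all tested probe sets called in these fits was not counted, so whether these changes are particular to the members is not known. The mean over the members was 7.16, 7.27, 6.95, 7.79 and 7.36 on OMT liver arrays and 7.14, 6.87, 7.22 and 7.35 on YMT liver arrays, so the groups overlapped, and OMT replicate 4 was highest of its group for 49 members. The median difference of 0.19 was 0.03 without OMT replicate 4 and 0.04 without YMT replicate 2. The largest within-group SDs were those of Snord1b, Snora62, Snord82, Snord111 and Snord70. Snord1b, held by Snhg16, was at 7.19, 6.72, 4.26, 7.02 and 6.68 in OMT and at 6.92, 4.44, 6.02 and 6.53 in YMT, so 1 array of each group, OMT replicate 3 and YMT replicate 2, stood far below the rest.

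The class medians in liver were 0.08 for H/ACA and 0.26 for C/D, with 18 of 26 and 35 of 43 estimates above 0. At an unadjusted p under 0.05, 3 H/ACA and 10 C/D members were higher and 1 of each class was lower (background 15.9% higher and 14.1% lower). The gap of -0.18 between the medians (H/ACA minus C/D) was 0.02 without YMT replicate 2 and -0.07 without OMT replicate 1, so its sign rests on single arrays.

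The intestinal difference was set against the hepatic one by testing the first minus the second on all 18 arrays. It was more positive in intestine for 2 members (3.96% of all tested probe sets) and more negative for 1 (6.61%), and at an unadjusted p under 0.05 for 8 (10.4%) and 3 (16.1%). Snora74a had an unequal difference of 1.66 ± 0.48 (limma, adjusted p = 0.0324), and Snora2b one of -1.07 ± 0.24 (limma, adjusted p = 0.00816). Snora2b was at 4.60, 3.83, 3.57, 3.81 and 3.86 in OMT intestines and at 4.15, 3.85, 4.31 and 3.93 in YMT intestines, which overlapped. The third was Snord88a, a dim C/D snoRNA in 2410002F23Rik. In intestine it was at 4.57, 4.82, 4.64, 4.07 and 4.42 in OMT and at 3.99, 3.96, 4.44 and 4.29 in YMT, and in liver at 4.74, 4.71, 4.86, 4.76 and 4.30 in OMT and at 5.15, 5.07, 4.86 and 4.94 in YMT. The intestinal estimate was above 0 (0.33 ± 0.16) and the hepatic one below (-0.33 ± 0.11), neither past the test (limma, adjusted p = 0.255 and 0.0736), and their difference was 0.67 ± 0.20 (limma, adjusted p = 0.0404). This call was lost in 12 of the 18 fits that left out 1 array (limma, adjusted p = 0.00971 to 0.0842), with no level filter (0.0591) and without OMT replicates 1 and 2 (0.160). That of Snora74a was lost in 8 of the 18 (0.00392 to 0.0769) and without OMT replicates 1 and 2 (0.123). Its neighbour in the same host, Snord88c, differed by -0.10 in intestine and -0.19 in liver. For Snora62 the unequal difference was 2.01 ± 0.68 and did not pass (limma, adjusted p = 0.0649); its within-group SD in liver was the largest among the H/ACA members. With 1 array left out, 0 to 6 members were more positive in intestine. The count was 1 in 8 of the 18 fits, 6 without intestinal OMT replicate 4, 4 without hepatic OMT replicate 4, and 0 without intestinal OMT replicate 2, intestinal YMT replicate 4, hepatic OMT replicate 2 or 5 or hepatic YMT replicate 4. Here too the share of all tested probe sets called was not counted.

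The estimates of host genes differed from those of the snoRNAs they hold. Of the 53 host genes 40 had a tested probe set (for genes with several, the one of highest mean). In intestine none of the 40 was called in either direction, against 0.909% higher and 2.41% lower over all tested probe sets. Their median difference was 0.03, with a range of -0.30 to 0.49. There 47 of the 53 members with a measured host had a larger estimate than the host. Rpsa, host of Snora62, differed by 0.10 ± 0.11 in intestine and 0.02 ± 0.12 in liver (limma, adjusted p = 0.650 and 0.935), and its dimmer probe set by 0.07 and 0.08. Snhg4, host of Snora74a, differed by 0.01 ± 0.07 in intestine and 0.32 ± 0.11 in liver (limma, adjusted p = 0.949 and 0.0631). In intestine both snoRNAs thus had estimates far above those of their hosts.

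In liver 11 of the 40 host genes were higher in OMT and none lower, against 8.85% and 7.56% of all tested probe sets, with a median difference of 0.26. They were Nop58 (1.14 ± 0.13), Gnl3, a nucleolar GTPase (0.77 ± 0.13), Nop56 (0.75 ± 0.15), Wdr43, a ribosome assembly factor (0.67 ± 0.10), Snhg3 (0.57 ± 0.13), Snhg6 (0.56 ± 0.11), Kansl2 (0.55 ± 0.12), Ncl, the nucleolar protein nucleolin (0.41 ± 0.08), Cct6a, a chaperonin subunit (0.36 ± 0.09), Eef2, a translation elongation factor (0.31 ± 0.07), and Ipo7, a nuclear import receptor (0.30 ± 0.07), with limma adjusted p from 0.000306 for Nop58 to 0.0236 for Cct6a. Only 16 of the 53 members had a larger estimate than their host in liver. Of the snoRNAs inside these 11 genes, Snora2b in Kansl2 and Snord87 in Snhg6 passed the test. Snord70 and Snord11 in Nop58 differed by 0.26 and 0.36, Snora75 and Snord82 in Ncl by 0.32 and 0.23, Snora73a and Snora73b in Snhg3 by 0.22 and 0.24, and Snora15 in Cct6a by -0.31, none past the test. Snord37 in Eef2 and Snora23 in Ipo7 had estimates above those of their hosts (0.55 and 0.47), while Snord69 in Gnl3 (0.26), Snord53 in Wdr43 (0.31), Snord110 in Nop56 (0.16) and Snora34 in Kansl2 (-0.15) had lower ones, and none of these passed either. Markers of other cells differed beside these values in liver. The mean of 4 smooth muscle genes was 5.05 to 5.24 on OMT and 5.30 to 5.82 on YMT arrays, with Acta2 (-0.55 ± 0.16) and Tagln (-0.64 ± 0.15) lower in OMT (limma, adjusted p = 0.0357 and 0.0131). The mean of the 6 enterocyte genes was 5.48 to 5.91 on OMT and 5.37 to 5.45 on YMT liver arrays; of these Apoa4, an apolipoprotein that liver also makes, was higher (2.17 ± 0.23, limma, adjusted p = 0.000189), and of the 6 hepatocyte genes Cyp2e1 was (0.23 ± 0.06, limma, adjusted p = 0.0267). Their part in the values of host genes and snoRNA-binding proteins was not tested. Of the 10 host genes with several tested probe sets, 3 (Cct6a, Kansl2 and Nop56) had a called and an uncalled probe set in liver; the uncalled one of Kansl2 differed by 0.41 (limma, adjusted p = 0.0562). Ribosomal protein genes have many near-identical copies, so a probe set that bears such a host's name may read several of them.

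**Figure D5:**
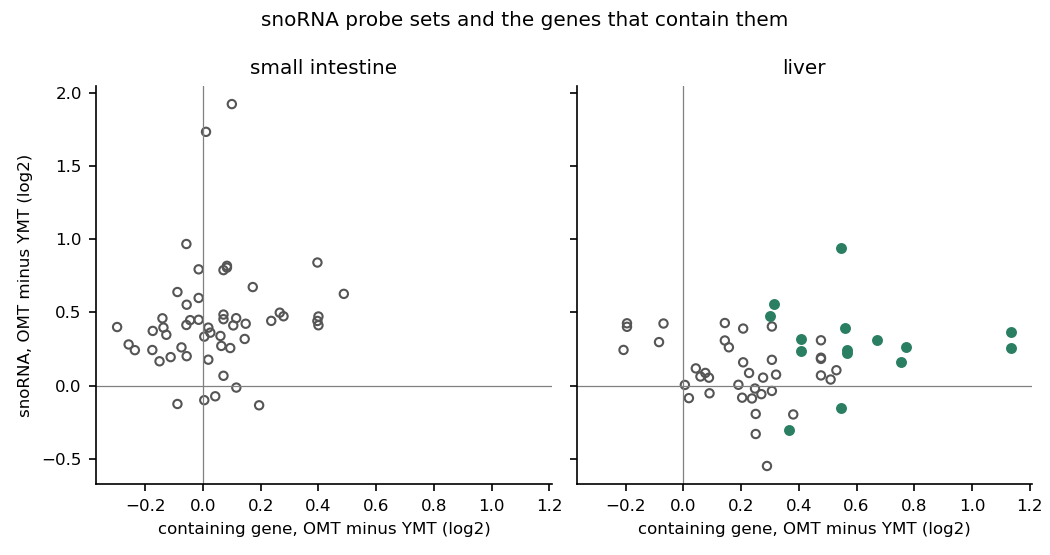
For each of 53 snoRNA probe sets with a measured host gene, the difference OMT minus YMT (log2) of the snoRNA (vertical axis) is plotted against that of the host (horizontal axis), in intestine and liver; filled points are those whose host passed the test. In intestine the points lie mostly above 0 on the vertical axis at host differences of -0.30 to 0.49, and in liver they spread to the right, up to 1.14.

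SnoRNAs that share a host did not always share a difference. In intestine those of 2410006H16Rik differed by 0.79 (Snord49a), 0.60 (Snord49b) and 0.45 (Snord65), and those of Snhg12 by 0.48 (Snora16a), 0.45 (Snora44), 0.79 (Snora61) and 0.07 (Snord99). In liver the values were 0.18, -0.04 and 0.40 for 2410006H16Rik, and 0.18, 0.07, 0.19 and 0.31 for Snhg12. The nearly alike pair Snora73a and Snora73b in Snhg3 gave 0.81 and 0.82 in intestine and 0.22 and 0.24 in liver; probes may not separate their sequences.

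The proteins that build and use snoRNAs were also measured. In liver, where 8.85% of all tested probe sets were called higher and 7.56% lower, all 3 tested C/D core genes of the 4 listed were higher in OMT: Nop58 (1.14 ± 0.13), Nop56 (0.75 ± 0.15) and Snu13 (0.25 ± 0.07, limma, adjusted p = 0.0347). Of the 4 H/ACA core genes Gar1 (0.40 ± 0.08) and Dkc1 (0.36 ± 0.10) were higher (limma, adjusted p = 0.00678 and 0.0395), and Nhp2 (-0.08 ± 0.12) and Nop10 (-0.04 ± 0.10) did not pass. Among 12 assembly factors 4 were higher, including Nolc1, a nucleolar phosphoprotein that accompanies snoRNPs (1.04 ± 0.19), and Ruvbl1, an ATPase that helps to assemble them (0.59 ± 0.10), with limma adjusted p of 0.00418 and 0.00297. Of 20 tested genes of trimming and decay, 9 were higher and Exosc8, an exosome subunit, was lower (-0.45 ± 0.13, limma, adjusted p = 0.0428). Of 22 genes of ribosomal RNA synthesis and ribosome assembly, 9 were higher in OMT liver, among them Polr1a (0.95 ± 0.10) and Polr1b (0.91 ± 0.11), the large subunits of RNA polymerase I, and Nop2, a ribosomal RNA methyltransferase (1.04 ± 0.09). Of 17 noncoding host genes, 5 were higher (Snhg3, Snhg5, Snhg6, Zfas1 and Epb41l4aos). The list medians were 0.75, 0.16, 0.21, 0.17, 0.24 and 0.32 in the order given, against 0.19 for the snoRNA members and -0.01 for all tested probe sets.

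In intestine these lists held 1 called gene, the exonuclease Xrn1, which was lower in OMT (-0.43 ± 0.10, limma, adjusted p = 0.0428). Over all tested probe sets 0.909% were called higher and 2.41% lower there. Nop58 differed by 0.02 ± 0.20, Nop56 by -0.04 ± 0.23, Dkc1 by -0.33 ± 0.28 and Gar1 by 0.06 ± 0.15 there, and the list medians were between -0.05 and 0.07, against 0.41 for the snoRNA members. Neat1, a long noncoding RNA retained in the nucleus, was higher in OMT in intestine (0.66 ± 0.13, limma, adjusted p = 0.0296) and in liver (1.80 ± 0.42, limma, adjusted p = 0.0146), and Malat1, of the same kind, differed by 0.40 ± 0.15 and 0.45 ± 0.28 without passing. Kcnq1ot1, also of this kind, differed by -0.09 ± 0.08 in intestine and 1.19 ± 0.41 in liver (limma, adjusted p = 0.536 and 0.0695).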

How the data were processed

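The authors deposited log2 levels. Per the submitters' processing notes they were made by RMA with the Affymetrix Expression Console (no versions stated). RMA subtracts background, sets all arrays to 1 distribution and summarises probes into probe sets, which narrows differences of dim ones. Per the labels, 250 ng of total RNA per sample was labelled as single-stranded cDNA. The log base was taken as 2 from the range of values (0.30 to 13.5), and whether the tissues were normalized together is not stated. No array depth applies: the number of arrays limits precision. No scan dates or batches were used, so a batch and a donor group cannot be told apart if they coincide. No arrays held identical values.

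Groups came from the sample titles. Probe sets were named from the platform annotation (23521 with 1 symbol, 1814 with several, 16010 unnamed here). limma 3.58.1 (lmFit and eBayes, R 4.3.3) was run within each tissue and, for unequal differences, over 4 groups on 18 arrays, two-sided, with Benjamini-Hochberg adjustment over 15513 probe sets. Hosts were taken from the RefSeq gene table of GRCm38.p6, as the shortest gene whose span holds the snoRNA (6 members lie in several); that table gives no strand, so the intended limit to the same strand was not applied, and no coordinates of it are printed since the array's build is not named. Promoters are RefSeq's.

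The members and lists were chosen with earlier results of these data known. Named were the members past a threshold, the 5 of highest level and the 5 of largest SD per tissue, Snord118 and Snord13, members and probe sets at the level limit, hosts of these, all core snoRNP genes, and up to 4 genes of smallest p per list; other members appear as neighbours or as examples, chosen after their values were seen. On simulated arrays with 200 changed probe sets of 15513, 52.2%, 85.1% and 98.5% of changes of 0.5, 1 and 2 were recovered in intestine, 62.7%, 95.5% and 100% in liver, and 23.9%, 88.1% and 100% for unequal differences, and 3.09%, 7.03% and 7.84% of calls were unchanged probe sets; simulated noise was independent between probe sets, unlike that of the snoRNAs. Alternatives were other filters, 1 probe set per gene, trend and robust eBayes, weights per array, median centring or quantile normalization within the tissue, all 18 arrays in 1 fit, a replicate block, a block of donor group and number across tissues (chosen after seeing the data), each array left out, OMT replicates 1 and 2 left out, and a threshold of 0.10. Statistics and figures also used Python 3.11.15, pandas 2.3.3, SciPy 1.17.1 and matplotlib 3.10.9.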

Additional observations from a re-analysis of the deposited data

Results flagged for a closer look

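In 9 of 66 groups of 4 or 5 arrays examined among the named members, 1 array stood apart from the others. By chance about 1 in 20 independent groups does. That rate is no yardstick here, because some members were named for their large SD and members vary together between arrays. In intestine these were Snora2b on OMT replicate 1 (4.60, the others at 3.57 to 3.86), Snord82 on YMT replicate 3 (11.21, the others at 10.68 to 10.77), and YMT replicate 4 for Snora74a (5.37, the others at 6.38 to 6.44) and for Snord118 (5.69, the others at 6.13 to 6.19). In liver OMT replicate 3 was low for Snord1b (4.26, the others at 6.68 to 7.19) and for Snord82 (8.09, the others at 9.69 to 10.33), and OMT replicate 5 was low for Snord88a (4.30, the others at 4.71 to 4.86). Among YMT livers replicate 4 was high for Snord87 (9.98, the others at 9.80 to 9.82) and replicate 1 low for Snord13 (10.74, the others at 11.16 to 11.17).

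By a test of the intestinal minus the hepatic difference, the tissues had unequal OMT minus YMT values for Snora74a (1.66), Snord88a (0.67) and Snora2b (-1.07). Snora2b met the level limit only through OMT arrays, so the limit favoured a difference, and 3 other filters remove it. The calls of Snora74a and Snord88a were lost in 8 and 12 of the 18 fits that left out 1 array.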

How the results depend on the processing

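Snora62 in intestine kept its direction and passed the test under each alternative. In intestine Snora74a was called beside it, 2 members in place of 1, under the stricter filter, a filter on the mean or within the tissue, array weights, median centring, all 18 arrays in 1 fit and a threshold of 0.10, and the count was 1 to 6 with 1 array left out. In liver 4 were called higher, in place of 2, under the stricter filter, trend and robust eBayes and array weights, and 7 at a threshold of 0.10, with 1 to 10 when 1 array was left out; 1 was called lower, in place of 0, without a filter and at 0.10, with a range of 0 to 1. Unequal differences more negative in intestine numbered 0, in place of 1, under filters that removed Snora2b (stricter, on the mean, within the tissue) and 2 without OMT replicates 1 and 2, with a range of 1 to 2; those more positive numbered 1, in place of 2, under the filter within the tissue and without OMT replicates 1 and 2, with a range of 0 to 6. No single array changed the count of lower members in intestine (0). The share of all tested probe sets called was not counted under the alternatives. Whether changes in these counts are particular to the members is therefore not known.

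The estimates that changed sign passed no test in either direction. Snord13 in intestine was -0.345 without OMT replicates 1 and 2 and -0.17 to 0.45 with 1 array left out. In liver, with 1 array left out, the ranges were -0.54 to 0.34 for Snora62 (0.32 without OMT replicate 3), -0.48 to 0.22 for Snord111 (0.08 without YMT replicate 1 and 0.09 without YMT replicate 4), -0.12 to 0.93 for Snord1b, -0.18 to 0.59 for Snord82, -0.15 to 0.59 for Snord70 and -0.045 to 0.20 for Snora74a. The cause of these changes was not tested beyond the arrays named.

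Same-numbered OMT and YMT arrays of a tissue did not all deviate together (correlations of -0.05 to 0.30 in intestine and -0.18 to 0.10 in liver). Differently numbered arrays gave -0.27 to 0.26 in intestine and -0.20 to 0.26 in liver. So few values cannot decide whether the numbers pair the arrays. With the replicate number as a block 2 members were called higher in intestine, Snora62 and Snora74a (limma, adjusted p = 0.0226 for Snora74a). Snord87 in liver was then 0.35 (limma, adjusted p = 0.0647). The labels do not say whether same-numbered intestine and liver arrays of a donor group come from 1 mouse; their deviations correlated by -0.03 to 0.13. With donor group and number together as a block across the tissues, a fit chosen after seeing the data, 1 member was more positive in intestine and 1 more negative: Snora62 passed (2.01, limma, adjusted p = 0.0425), and Snora74a and Snord88a did not (0.0571 and 0.0613).

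Precision was limited by 5 and 4 arrays per group, the shared movement of snoRNAs between arrays, and array background for dim members such as Snora2b and Snord88a.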
